A study of Mus musculus with 6 samples.

Results

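Genes that mark or steer blood vessels were examined in inguinal fat of mice that regained weight. They are 10 genes in 3 roles, out of 34844 gene names on the array. The endothelial marker genes are Pecam1, Cdh5 and Vwf. The receptor genes are Kdr, Flt1, Tek and Tie1, and the ligand genes are Vegfa, Angpt1 and Angpt2. Their probes were chosen by gene name among the non-control probes of the array, which gave 15 probes on 26 spots, out of 55681 probes in all. The rule that picks the probes reads gene names only, while the genes themselves were chosen with earlier results of these data known. Of the 15 probes 14 passed the filter on dim signal and were tested, at least 1 for every gene, and the 1 that did not, a probe of Flt1, is described with its values.

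The samples were inguinal fat, a subcutaneous depot, taken from male C57BL/6J mice and measured as total RNA on 1-colour Agilent arrays, with 3 arrays per group and 1 array per sample. Mice of the group titled DIO_CR_WR were 2 months old at the start and received high fat food (60% of energy) during 1 month. Their calories were then restricted for some 3 weeks, which brought them down to the weight of chow-fed mice, after which high fat food was offered without limit and weight returned. Mice of the group titled DIO received chow during the first stages and unlimited high fat food in the last, so both groups ended on that food. In the protocol text the regaining animals are called DIO and the rest CTR; the sample titles are followed here. Labelled ages are 9, 10 and 11 months for DIO_CR_WR and 6, 7 and 8 months for DIO, so group and labelled age cannot be told apart. The labelled ages climb in steps of 1 month along the order of deposit, and whether they are the animals' true ages is uncertain. The labels do not say whether a sample is 1 mouse, so p-values measure the spread between these samples, which may be partly technical.

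Blood vessels are lined by endothelial cells, which are joined to each other by adhesion proteins and clot blood through factors they store. They survive and sprout in response to VEGF-A, which acts through the receptors encoded by Kdr and Flt1, and they are kept quiet or made ready to remodel by the angiopoietins, which act through the receptor encoded by Tek. In fat the vessel bed grows and shrinks with the adipocytes, and adipocytes are themselves a source of VEGF-A.

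The probe pair of the TIE receptors is shown because Tek and Tie1 are close relatives and a shared probe target would make their values hard to separate. Both are 60-base probes read from the array files, at chr4:94540624-94540683 on the plus strand for Tek and chr4:118144132-118144191 on the minus strand for Tie1 (mm9), and capitals mark bases that are identical between the probes at their best ungapped offset of 3 bases.
Tek: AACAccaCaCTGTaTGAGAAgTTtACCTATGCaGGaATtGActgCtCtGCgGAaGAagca
Tie1: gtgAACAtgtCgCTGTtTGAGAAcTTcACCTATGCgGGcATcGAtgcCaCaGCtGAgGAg
The probes lie on matching stretches of the related transcripts and share 39 of 57 aligned bases (68.4%), with differences spread along the whole length.

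The arrays set some limits. Between 52.9% and 66.7% of non-control spots were well above background on the DIO_CR_WR arrays and between 69.1% and 79.7% on the DIO arrays, and no spot was saturated (0 on each array). Slide 1 carried the 3 DIO_CR_WR arrays and DIO replicate 1, while slide 2 carried the other DIO arrays, so values within slide 1 are given beside fold changes that differ there by more than 1.5 times or in sign. All values below are log2 signal relative to the array's own 75th percentile, which gives differences between arrays for a probe but no order between probes, and precision is limited by the 3 arrays per group. On this scale the median log2 fold change of all 38460 probes tested was −0.19, so each gene's fold change is also given relative to that median, a difference that adding a constant to an array leaves as it is. All 10 adipocyte markers and all 18 listed endothelial junction and surface genes were well above background on every array.

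No vessel or angiogenic probe passed the test. Limma (two-sided, Benjamini-Hochberg adjustment over all probes) called 0 of the 14 probes at an adjusted p under 0.05, where it called 0 of all 38460 (0%), and the smallest adjusted p among them was 0.155. At an unadjusted p under 0.05, 2 of the 14 were higher in DIO_CR_WR, where 5.34% of all probes were, and 0 were lower, where 20.8% of all probes were. The groups' arrays did not overlap for 3 of the 14, all higher in DIO_CR_WR, where 7.29% of all probes were higher without overlap, and for 0 in the lower direction, where 25.6% of all probes were (32.9% in either direction). These 3 probes measure Pecam1, Cdh5 and Tek. The median log2 fold change of the 14 probes was −0.05, which is 0.14 above that of all probes, and 10 of the 14 lay above the median of all probes. All 14 had signal well above background on all 6 arrays. Among the 27366 probes with such signal the median was −0.12, and the 14 lay 0.07 above it. Values given relative to all probes are lower against those probes, for Pecam1 0.53 in place of 0.60. The sign of a fold change depended on the scaling for some probes. The 8 probes of Kdr, Flt1, Vwf and Vegfa lay below 0 on the 75th percentile scale and above 0 when arrays were scaled on E1A spike-in probes. The Tie1 probe lay above 0 on the 75th percentile scale and at −0.012 with normexp and quantile normalization.

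**Figure D1:**
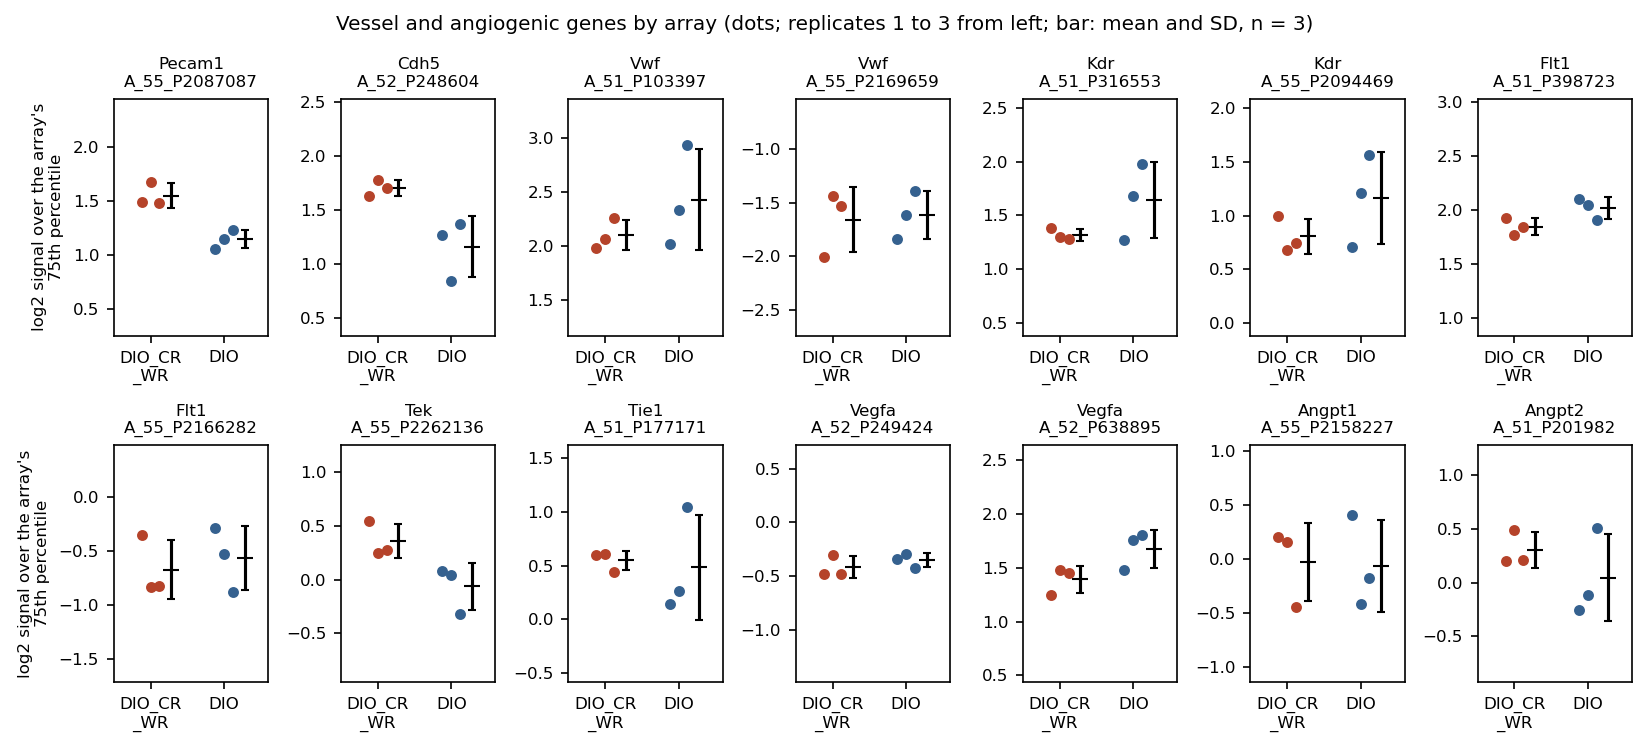
Log2 signal over the array's 75th percentile (vertical axis, log2 units, each panel spanning the same range) for the 14 tested probes, with 3 DIO_CR_WR arrays in red and 3 DIO arrays in blue. Bars give the mean and SD (n = 3). Pecam1, Cdh5 and Tek are the panels in which the groups do not overlap, and the DIO arrays of the first Vwf probe, both Kdr probes, Tie1 and Angpt2 are spread far more widely than the DIO_CR_WR arrays.

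Pecam1 encodes PECAM-1 (CD31), an adhesion protein at the junctions of endothelial cells that platelets and some leukocytes also carry. Its probe, at chr11:106540864-106540923 on the minus strand (mm9), had log2 signals of 1.49, 1.68 and 1.48 on the DIO_CR_WR arrays and 1.06, 1.15 and 1.23 on the DIO arrays. Every DIO_CR_WR array lay above every DIO array. The means were 1.55 ± 0.11 in DIO_CR_WR and 1.15 ± 0.09 in DIO (SD, n = 3 arrays each), so the log2 fold change was 0.41 ± 0.15 SE or 1.32-fold, with a limma adjusted p of 0.167. Relative to all probes it was 0.60, higher than for 86.7% of them.

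Cdh5 encodes VE-cadherin, the cadherin that holds endothelial cells together and is found almost only in them. Its probe, at chr8:106668159-106668218 on the plus strand (mm9), had log2 signals of 1.63, 1.78 and 1.70 on the DIO_CR_WR arrays and 1.27, 0.84 and 1.37 on the DIO arrays. The groups did not overlap, and the DIO_CR_WR arrays lay close together while DIO replicate 2 was the lowest array. The log2 fold change was 0.54 ± 0.19 SE (1.46-fold, limma adjusted p = 0.155), with a 95% confidence interval of 0.08 to 1.00. This was the largest fold change of the 14 probes and higher than that of 90.7% of all probes. Without DIO replicate 2 it was 0.38.

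Vwf encodes von Willebrand factor, the clotting protein that endothelial cells and megakaryocytes store and release. The probe near the end of its transcript, at chr6:125636551-125636610 on the plus strand (mm9), had log2 signals of 1.98, 2.07 and 2.26 on the DIO_CR_WR arrays and 2.02, 2.33 and 2.94 on the DIO arrays. The groups overlapped, because DIO replicate 1 lay among the DIO_CR_WR arrays while DIO replicate 3 lay above every other array. Vwf had a log2 fold change of −0.33 ± 0.26 SE (limma adjusted p = 0.447), and within slide 1 it was 0.08. A second Vwf probe, 94.4 kb upstream at chr6:125542106-125542165 and annotated only by an Ensembl transcript, gave −0.04 ± 0.22 SE (0.18 within slide 1). Of the 3 endothelial marker genes Vwf was the one whose groups overlapped.

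Kdr encodes VEGFR2, the receptor that carries most of the growth signal of VEGF-A into endothelial cells. It was measured by a probe at chr5:76329309-76329368 (minus strand, mm9), which is printed 10 times on the array, and by another 1086 bases upstream in the transcript at chr5:76330395-76330454. On the first probe the log2 signals were 1.39, 1.30 and 1.28 in DIO_CR_WR and 1.27, 1.68 and 1.98 in DIO. The DIO_CR_WR arrays and DIO replicate 1 were almost level, and the DIO arrays of slide 2 lay above them. The spots of this probe differed on any one array by an SD of 0.05 to 0.15 (log2, 8 to 10 spots used), beside an SD of 0.35 between DIO arrays and 0.06 between DIO_CR_WR arrays.

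The log2 fold change of Kdr was −0.32 ± 0.21 SE (limma adjusted p = 0.365), with a 95% confidence interval of −0.83 to 0.19. The upstream Kdr probe, with 0.99, 0.68 and 0.75 on the DIO_CR_WR arrays and 0.71, 1.21 and 1.56 on the DIO arrays, gave −0.35 ± 0.25 SE (limma adjusted p = 0.393). On both probes the DIO arrays of slide 2 lay above the other 4 arrays. Within slide 1 the fold changes were 0.05 and 0.10, so the lower values in DIO_CR_WR rested on the DIO arrays of slide 2. Relative to all probes the fold changes over all 6 arrays were −0.13 and −0.17.

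Flt1 encodes VEGFR1, which binds VEGF-A tightly and, as a soluble form, traps it. The probe at the end of the full transcript, at chr5:148373791-148373850 (minus strand, mm9), had log2 signals of 1.93, 1.77 and 1.84 on the DIO_CR_WR arrays and 2.10, 2.05 and 1.91 on the DIO arrays. The groups overlapped by a narrow margin at a log2 fold change of −0.17 ± 0.15 SE (limma adjusted p = 0.482). Relative to all probes it was 0.02, which places Flt1 near the middle of all probes.

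A second Flt1 probe, 73.1 kb upstream at chr5:148446872-148446931 and annotated by another transcript of the gene, gave −0.11 ± 0.23 SE (limma adjusted p = 0.792) and −0.38 within slide 1. The log2 ratio of this probe to the first averaged −2.52 ± 0.21 in DIO_CR_WR and −2.59 ± 0.20 in DIO (SD, n = 3 arrays each), a difference of 0.07 that is smaller than the spread in either group. The third Flt1 probe, a further 19.1 kb upstream at chr5:148465976-148466035, was well above background on 0 of 3 DIO_CR_WR arrays and on 2 of 3 DIO arrays, so it was not tested. Its signal was near background on all arrays, averaging −7.35 ± 0.72 on the DIO_CR_WR arrays and −6.82 ± 0.32 on the DIO arrays (SD, n = 3 each, log2), and no fold change is drawn from it.

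Tek encodes TIE2, the receptor of the angiopoietins. The probe shown above had log2 signals of 0.54, 0.25 and 0.28 on the DIO_CR_WR arrays and 0.08, 0.04 and −0.32 on the DIO arrays. Every DIO_CR_WR array lay above every DIO array, with DIO replicate 3 the lowest. The means were 0.36 ± 0.16 in DIO_CR_WR and −0.06 ± 0.22 in DIO (SD, n = 3 arrays each), a log2 fold change of 0.42 ± 0.18 SE (1.34-fold, limma adjusted p = 0.207). It was higher than for 87.3% of all probes. Within slide 1 it was 0.27.

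Tie1 encodes the related receptor TIE1, which binds no angiopoietin by itself and modulates TIE2. Its probe had log2 signals of 0.60, 0.60 and 0.44 on the DIO_CR_WR arrays and 0.14, 0.26 and 1.04 on the DIO arrays. DIO replicates 1 and 2 lay below all DIO_CR_WR arrays and DIO replicate 3 lay above them. Tie1 had a log2 fold change of 0.06 ± 0.26 SE (limma adjusted p = 0.894), 0.34 without DIO replicate 3 and 0.40 within slide 1. DIO replicate 3 thus had the highest Tie1 and the lowest Tek signal of all 6 arrays, on probes that share most of their bases.

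The windows of 250 bases before the transcription start of Tek and Tie1 are shown because the related receptor genes placed the arrays in different orders. The windows carry no measured value. Sequences are those of RefSeq on GRCm38.p6, and capitals mark the ETS core, GGAA on either strand, which factors of the endothelial ETS family recognise. The window of Tek is chr4:94739039-94739288 on the plus strand, and that of Tie1 is chr4:118489850-118490099 on the minus strand.
Tek: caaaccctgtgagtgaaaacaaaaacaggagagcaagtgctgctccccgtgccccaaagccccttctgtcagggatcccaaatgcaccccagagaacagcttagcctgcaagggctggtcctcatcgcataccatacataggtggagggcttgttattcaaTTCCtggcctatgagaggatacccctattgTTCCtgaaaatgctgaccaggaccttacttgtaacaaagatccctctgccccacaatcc
Tie1: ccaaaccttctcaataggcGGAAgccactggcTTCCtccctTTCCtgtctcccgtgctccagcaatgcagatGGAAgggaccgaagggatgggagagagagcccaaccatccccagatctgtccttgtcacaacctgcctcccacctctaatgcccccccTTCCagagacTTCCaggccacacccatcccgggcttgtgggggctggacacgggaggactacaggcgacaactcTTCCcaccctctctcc
The Tek window held 2 ETS cores and the Tie1 window 7. The promoter table held 6 windows for 5 of the 10 genes, of which 4 windows had at least 4 ETS cores, against 33.4% of all 32851 windows. At least 1 hypoxia response core, ACGTG or GCGTG on either strand, was in 3 of the 6 windows and in 38.6% of all windows. Vegfa is counted there with both its windows. The one at chr17:46032378-46032627 held 0 hypoxia cores, and the one downstream of it at chr17:46025164-46025413 held 2. At least 1 GATA core, GATA on either strand, was in 3 of the 6 and in 53.6% of all. A match is only these letters in this window.

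Vegfa encodes VEGF-A, the main growth factor of endothelial cells. The probe at chr17:46154387-46154446 (minus strand, mm9) had log2 signals of 1.25, 1.48 and 1.45 on the DIO_CR_WR arrays and 1.48, 1.75 and 1.80 on the DIO arrays. DIO replicate 1 was level with the highest DIO_CR_WR array, and the other DIO arrays lay above both. The log2 fold change was −0.28 ± 0.17 SE (limma adjusted p = 0.318) and −0.08 within slide 1. A second Vegfa probe, 7989 bases upstream on the genome at chr17:46162376-46162435, gave −0.07 ± 0.15 SE (limma adjusted p = 0.802), with a 95% confidence interval of −0.42 to 0.29. On this probe the arrays of both groups lay within the same narrow range, from −0.48 to −0.30 in DIO_CR_WR and from −0.42 to −0.29 in DIO.

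Angpt1 encodes angiopoietin-1, made by the cells around vessels, which activates TIE2 and stabilises them. Its probe, at chr15:42256335-42256394 (minus strand, mm9), had log2 signals of 0.21, 0.16 and −0.44 on the DIO_CR_WR arrays and 0.41, −0.42 and −0.18 on the DIO arrays. Each group spanned most of the other's range. Angpt1 had a log2 fold change of 0.04 ± 0.29 SE (limma adjusted p = 0.947), the widest standard error of the 14 probes, and −0.44 within slide 1.

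Angpt2 encodes angiopoietin-2, which endothelial cells release and which in most settings opposes angiopoietin-1 at TIE2. Its probe, at chr8:18691458-18691517 (minus strand, mm9), had log2 signals of 0.20, 0.49 and 0.21 on the DIO_CR_WR arrays and −0.25, −0.12 and 0.51 on the DIO arrays. DIO replicate 3 was level with the highest DIO_CR_WR array, and the other DIO arrays lay below all of them. Angpt2 had a log2 fold change of 0.26 ± 0.24 SE (limma adjusted p = 0.525). It was 0.55 within slide 1 and 0.49 without DIO replicate 3.

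**Figure D2:**
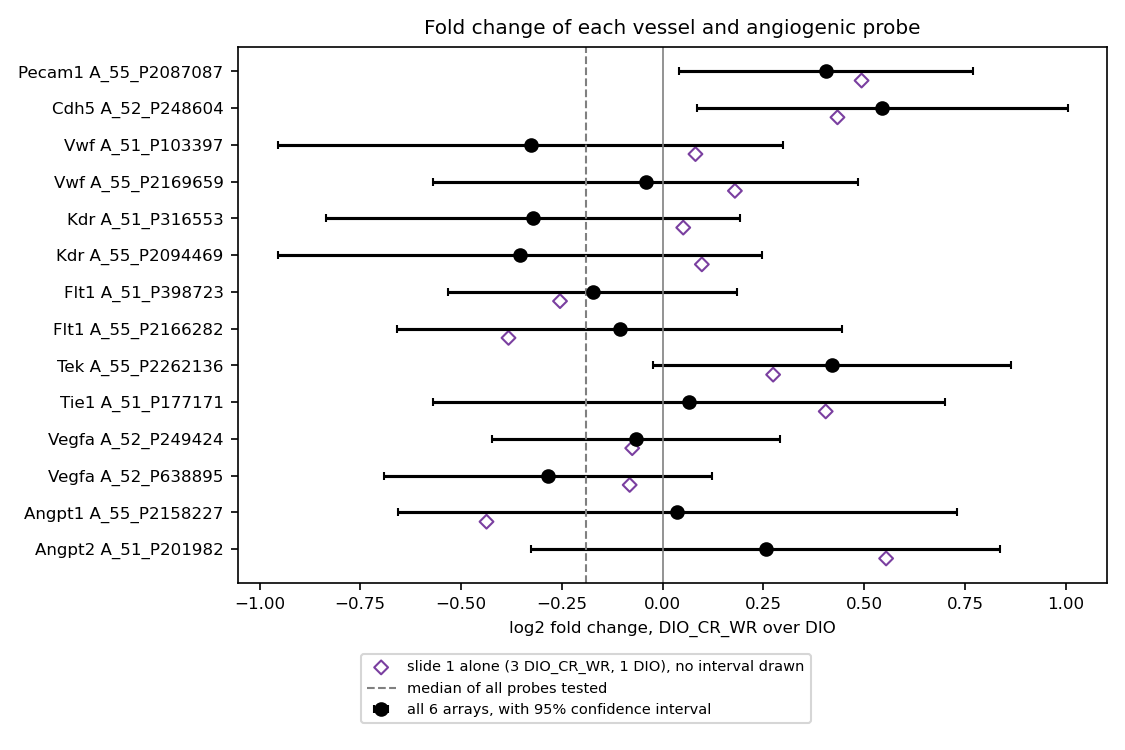
Log2 fold change of DIO_CR_WR over DIO (horizontal axis) for the 14 tested probes, with 95% confidence intervals from limma over all 6 arrays (black) and the value on slide 1 alone, with 3 DIO_CR_WR arrays and 1 DIO array (open diamonds). The dashed line is the median of all probes, −0.19. Pecam1, Cdh5 and Tek lie right of 0 in both, while Vwf and Kdr lie left of 0 over all arrays and right of it on slide 1.

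Values on slide 1 were near those over all arrays for some genes and not for others. On slide 1, where DIO replicate 1 is the only DIO array and was assumed to vary like the others, Pecam1 and Cdh5 had log2 fold changes of 0.49 ± 0.19 and 0.43 ± 0.18 SE, near their values over all arrays. Angpt2 had 0.55 ± 0.22 and Tie1 0.40 ± 0.18 SE there. None of the 14 probes passed on slide 1 (0 at an adjusted p under 0.05). The standard deviation between arrays was narrower in DIO_CR_WR than in DIO, with a median over the 14 probes of 0.13 in DIO_CR_WR and 0.29 in DIO. Over all probes tested the same medians were 0.22 and 0.29.

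Ratios between probes on the same array do not depend on the scaling of arrays, though the level of such a ratio has no meaning of its own. The pairs were chosen with the single values known, so no test is given. Pecam1 and Cdh5 were each higher without overlap on their own, and Kdr and Vwf were lower on average. Groups apart in Pecam1 over Kdr and in Cdh5 over Vwf therefore follow largely from the choice of pairs. The share of all probe pairs without overlap was not counted. The log2 ratio of Pecam1 to Kdr was 0.11, 0.38 and 0.20 on the DIO_CR_WR arrays and −0.21, −0.53 and −0.75 on the DIO arrays. All DIO_CR_WR arrays lay above all DIO arrays, with means of 0.23 ± 0.14 in DIO_CR_WR and −0.50 ± 0.27 in DIO (SD, n = 3 arrays each) and a difference of 0.73. The DIO array on slide 1 and the DIO arrays on slide 2 all lay below the DIO_CR_WR arrays in this ratio.

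The log2 ratio of Cdh5 to Vwf was −0.35, −0.29 and −0.56 on the DIO_CR_WR arrays and −0.75, −1.49 and −1.57 on the DIO arrays. The groups again did not overlap, and the means differed by 0.87. The receptor and ligand pairs behaved otherwise. The log2 ratio of Tek to Tie1 averaged −0.19 ± 0.15 in DIO_CR_WR and −0.55 ± 0.71 in DIO (SD, n = 3 arrays each), and DIO replicate 3 alone made most of that spread. The log2 ratio of Angpt2 to Angpt1 averaged 0.33 ± 0.33 in DIO_CR_WR and 0.11 ± 0.70 in DIO, a difference well within the spread. Kdr to Flt1, the VEGF receptor pair, averaged −0.52 ± 0.05 in DIO_CR_WR and −0.38 ± 0.45 in DIO.

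**Figure D3:**
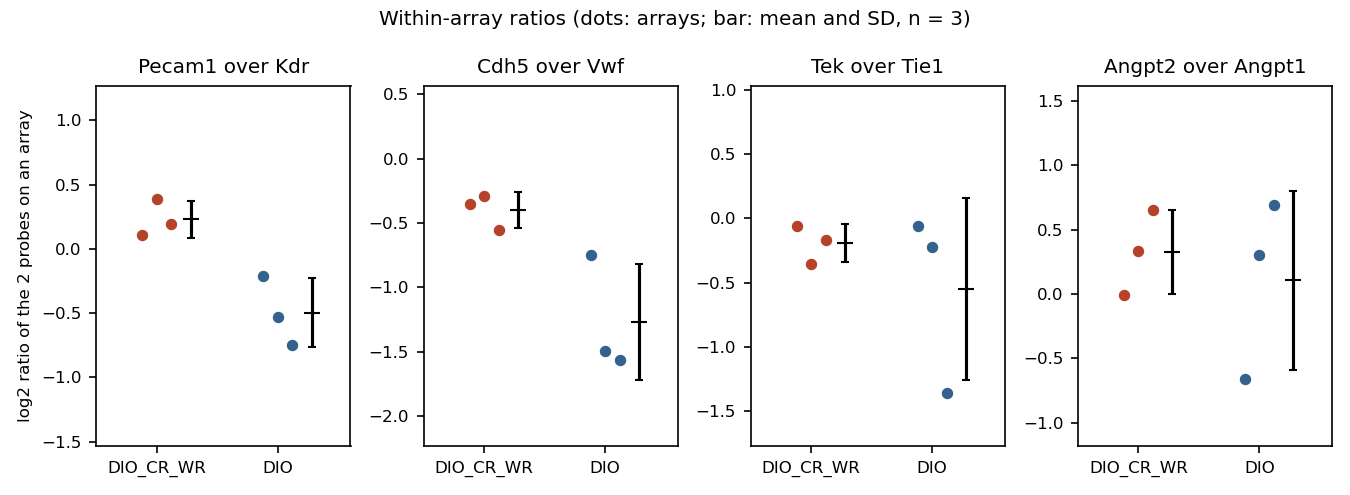
Log2 ratio of 2 probes on the same array (vertical axis, log2 units, each panel spanning the same range) for 4 gene pairs, with DIO_CR_WR arrays in red, DIO arrays in blue, and the mean and SD (n = 3). The groups are apart for Pecam1 over Kdr and Cdh5 over Vwf and overlap for Tek over Tie1 and Angpt2 over Angpt1. The pairs were chosen with the single values known.

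The 7 endothelial genes Pecam1, Cdh5, Vwf, Kdr, Flt1, Tek and Tie1 did not share one order of arrays. Their mean deviation from each gene's own mean was 0.06, 0.05 and 0.02 on the DIO_CR_WR arrays and −0.17, −0.11 and 0.15 on the DIO arrays, so the groups overlapped through DIO replicate 3. In bulk tissue a difference in the number of endothelial cells and a difference in RNA per endothelial cell cannot be told apart. The genes whose deviations lay closest to this mean over the 6 arrays were Elovl5, Ncoa6, Prkci, Pja1 and Abcd4, at mean absolute differences of 0.02 to 0.03 (log2). The median distance over 26180 genes was 0.29. Pecam1, Cdh5, Kdr, Flt1, Tek, Tie1 and Vwf lay 0.15 to 0.23 from it, but as they make up the mean they lie nearer to it by construction.

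Other genes of the same pathways and cells were taken from lists, with 1 probe per gene, the brightest on average. The lists were drawn up with earlier results of these data known. Limma passed 0 genes of any list over all probes. With 1 probe per gene, an unadjusted p under 0.05 was reached by 5.43% of all 26180 genes in the higher direction and by 21.6% in the lower, and the counts of the lists are to be read against these shares. Values with slide as a block, which equal those within slide 1, are given in brackets where they differ by more than 1.5 times. Of 18 endothelial junction and surface genes, 1 was higher (unadjusted p under 0.05, close to the share of all genes) and 0 were lower, and their median was 0.22 above that of all probes. The 1 higher was Ecscr, a regulator of endothelial migration (log2 fold change 0.59 ± 0.19 SE, limma adjusted p = 0.144, slide as block 0.33), while Cd34, a surface glycoprotein of endothelium and progenitors, had −0.44 ± 0.19 SE (slide as block −0.15). Of 12 endothelial transcription factors 4 were higher and 1 lower, with a median 0.52 above all probes. The ETS factors Fli1 and Ets1, the genes of the list with the smallest p, had log2 fold changes of 0.87 ± 0.23 and 0.56 ± 0.18 SE (limma adjusted p = 0.131 and 0.142). Neither overlapped between groups, where 7.29% of all probes were higher without overlap. With slide as block Fli1 had 0.51. Both factors are also made by cells other than endothelium. Mef2c, the 1 lower, had −0.95 ± 0.32 SE and did not overlap, where 25.6% of all probes were lower without overlap.

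Of 7 measured genes of activated and venous endothelium 4 were higher and 1 lower, where 5.43% of all genes were higher and 21.6% lower. Their median was 0.86 above all probes and 0.80 with the slide as a block. Vcam1, an adhesion molecule that holds leukocytes on inflamed vessels, had log2 signals of 0.32, 0.30 and 0.66 on the DIO_CR_WR arrays and −0.51, −1.09 and −1.03 on the DIO arrays. That was a log2 fold change of 1.30 ± 0.22 SE (2.47-fold, limma adjusted p = 0.119), above that of every one of the 14 vessel probes. Icam1, the companion adhesion molecule, had 0.67 ± 0.14 SE. Both are also made by cells other than endothelium.

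Other ligands and regulators of the same pathways stood as follows. Among 7 VEGF ligands and co-receptors 0 were at an unadjusted p under 0.05. The co-receptor Nrp1 stood at 0.67 ± 0.29 SE on the log2 scale (0.06 with slide as block) and the ligand Vegfb −0.37 ± 0.21 SE. Among 7 angiopoietin-like genes and TIE regulators 0 were at that threshold, and Ptprb, the phosphatase that switches off TIE2, had −0.30 ± 0.16 SE (slide as block −0.13), with Angptl6 at −0.29 ± 0.15 SE. Among 12 Notch genes, which set the choice between sprouting and quiet endothelium, 0 were at that threshold, with 0.64 ± 0.28 SE for Dll1 and 0.69 ± 0.33 SE for Jag1 (0.18 and −0.02 with the slide as a block).

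Of 19 hypoxia response genes, to which Vegfa belongs in textbooks, 2 were higher and 4 lower, the share lower being close to that of all genes, and their median was 0.02 above all probes. Adm, a vessel-widening peptide, had 1.08 ± 0.20 SE and the glycolytic enzyme Hk2 −0.65 ± 0.16 SE. Of 11 angiogenesis inhibitors 1 was higher and 2 lower, the share lower again near that of all genes. These included Thbs1, thrombospondin-1, with 1.03 ± 0.26 SE, and Sema3a, a semaphorin that repels growing vessels, with −0.97 ± 0.20 SE (slide as block −0.64) and signal well above background on 2 of 3 DIO_CR_WR arrays. Of 14 genes of pericytes and vascular smooth muscle, the cells wrapped around vessels, 1 was higher and 2 lower, and their median was 0.29 above all probes. The smallest p values were those of Pdgfrb (0.57 ± 0.16 SE) and Des (−0.86 ± 0.21 SE), and neither gene is limited to these cells. The other pericyte markers Rgs5, Cspg4 and Kcnj8 had 0.02 ± 0.28, 0.29 ± 0.25 and 0.06 ± 0.18 SE (slide as block −0.20, 0.55 and 0.25). Of 12 genes of fat capillary endothelium, 9 lay above the median of all probes and the list's median was 0.18 above it. At an unadjusted p under 0.05, 0 of the 12 were higher and 1 was lower, the fatty acid transporter Cd36 (−0.66 ± 0.15 SE), which adipocytes also make. Cav1 of the same list had −0.48 ± 0.25 SE (slide as block −0.05).

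**Figure D4:**
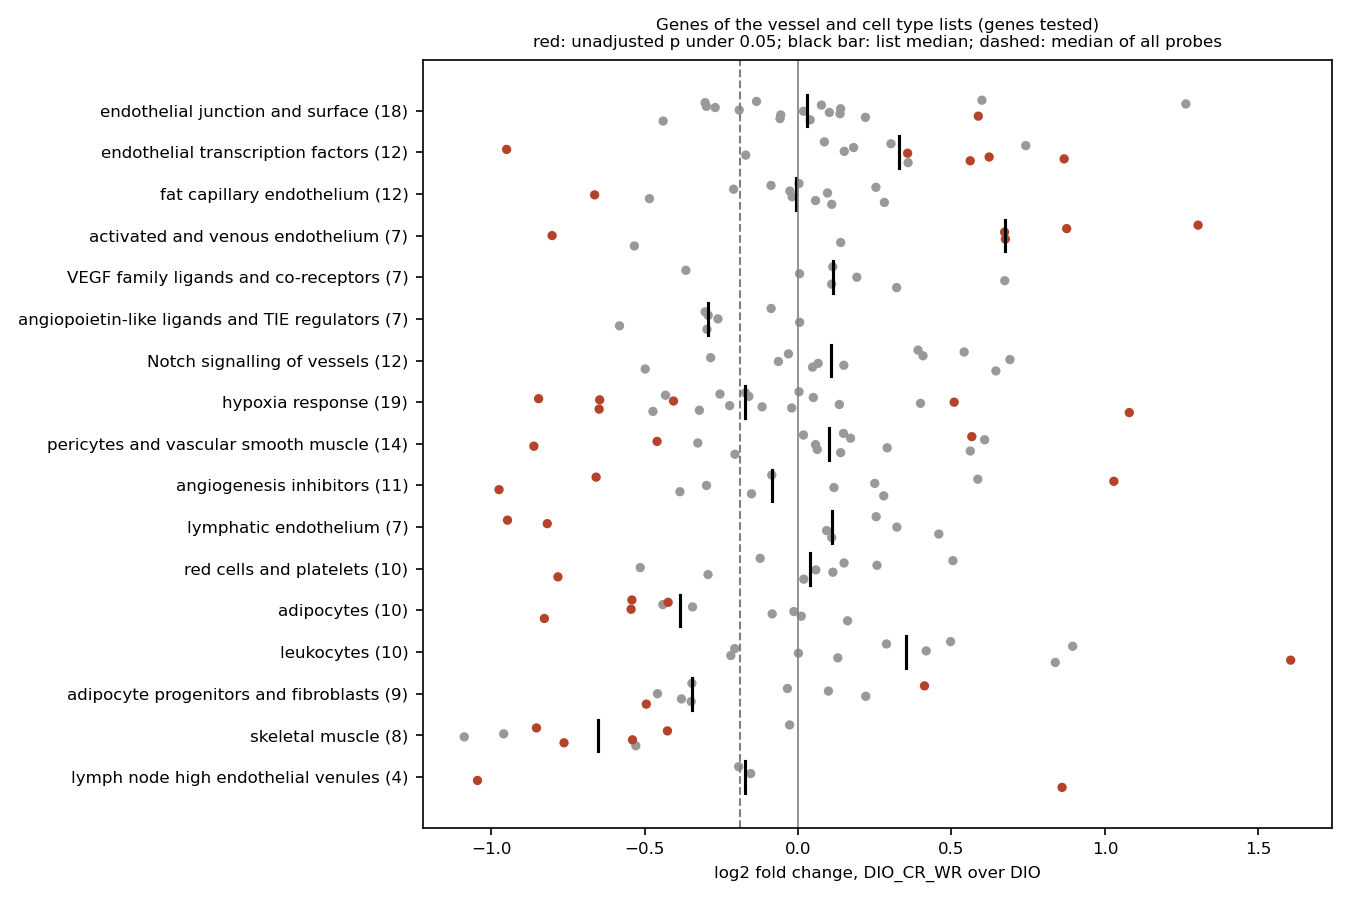
Log2 fold change of DIO_CR_WR over DIO (horizontal axis) for each gene of 17 lists of vessel pathways and cell types, 1 probe per gene, with the number of genes tested in brackets. Black bars are list medians, the dashed line is the median of all probes (−0.19), and red dots have an unadjusted p under 0.05. The activated and venous endothelium list has the highest median and skeletal muscle the lowest.

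Of the markers of other cells in the depot 0 passed at an adjusted p under 0.05. The ranges of their mean deviations overlapped between groups for leukocytes and adipocytes. Those of skeletal muscle were lower in DIO_CR_WR without overlap, where 25.6% of single probes were. The mean of the hypoxia response list was also lower without overlap. The means of endothelial transcription factors, activated and venous endothelium, and VEGF ligands and co-receptors were higher without overlap. The share among all such lists was not counted. The mean deviation of 10 measured leukocyte markers ran from 0.0048 to 0.51 on the DIO_CR_WR arrays and from −0.75 to 0.41 on the DIO arrays. At an unadjusted p under 0.05, 1 of the 10 was higher and 0 were lower, and 8 lay above the median of all probes. Their 2 with the smallest p were Cd3g (1.61 ± 0.38 SE) and Cd3e (0.84 ± 0.47 SE, slide as block 1.497). Emr1, Csf1r, Itgam and Cd68 had 0.42 ± 0.26, 0.0016 ± 0.24, −0.21 ± 0.25 and −0.22 ± 0.32 SE (slide as block 0.84, 0.37, 0.04 and 0.39). Ms4a1, which is part of the leukocyte mean, was well above background on 2 of 3 DIO arrays. The 10 adipocyte markers ran from −0.26 to 0.02 in DIO_CR_WR and from −0.0027 to 0.29 in DIO. At an unadjusted p under 0.05, 0 of the 10 were higher and 4 lower, and 4 lay above the median of all probes. Cfd and Slc2a4, with the smallest p, had −0.83 ± 0.20 (slide as block −0.54) and −0.54 ± 0.16 SE. Adipoq, Cidec, Lep, Fabp4 and Plin1 had 0.16 ± 0.32, 0.01 ± 0.22, −0.01 ± 0.15, −0.08 ± 0.29 and −0.34 ± 0.23 SE. With slide as block these had 0.33, 0.08, 0.08, −0.02 and −0.17. The 8 skeletal muscle genes ran from −0.62 to −0.07 in DIO_CR_WR and from 0.10 to 0.44 in DIO, with Actn3 at −0.76 ± 0.21 and Ckm at −0.54 ± 0.16 SE. The part of these cells in the vessel genes' values was not tested.

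The 10 tested markers of red cells and platelets, which bear on Pecam1 and Vwf, ran from −0.21 to 0.09 in DIO_CR_WR and from 0.02 to 0.04 in DIO. The platelet genes Ppbp and Gp1bb had 0.50 ± 0.28 and −0.78 ± 0.30 SE (slide as block 0.01 and −0.50). The 7 tested lymphatic markers, which bear on Tie1, Tek and Pecam1, ran from −0.15 to 0.03 in DIO_CR_WR and from −0.08 to 0.11 in DIO. Prox1, their defining regulator, was well above background on 1 of 3 DIO_CR_WR arrays and all 3 DIO arrays, and Reln likewise, so no fold change is given for either. Both are part of the lymphatic mean and lower it in DIO_CR_WR. The other markers, Lyve1, Pdpn, Sox18, Flt4 and Mmrn1, had 0.46 ± 0.23, 0.32 ± 0.20, 0.25 ± 0.20, 0.11 ± 0.18 and 0.09 ± 0.39 SE. With slide as block they had 0.08, 0.67, 0.60, 0.13 and −0.61. Flt4 was well above background on 2 of 3 DIO_CR_WR arrays. Of the 9 progenitor and fibroblast markers Pdgfra had 0.41 ± 0.16 and Cd55 −0.49 ± 0.20 SE (slide as block 0.23 and −0.16). Of the 4 tested genes listed for lymph node venules Chst4 had −1.04 ± 0.19, Madcam1 −0.19 ± 0.49 and Fut7 −0.15 ± 0.38 SE. With slide as block Madcam1 and Fut7 had 0.22 and 0.61. Madcam1 was well above background on 2 of 3 DIO_CR_WR arrays. Ccl19, which is not specific to venules, had 0.86 ± 0.15 SE, and Glycam1 was too dim to test.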

How the data were processed

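The deposited values are spot intensities of 6 Agilent arrays, which the submitters' Feature Extraction software made by subtracting a local background and correcting trends within each array, per the file headers, without scaling between arrays. The headers give version 10.7.3.1 for its grid placement step, and the submitters' processing notes give 10.7.1.1 for the software. Deposited flags of 0 or 1 mark spots well above background, saturated or outlying. A series table has 18 per-sample columns under names that match no sample title, and was left unused.

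Control spots (3671) and outlier spots were set aside, spots of a probe averaged as log2, and each array's 75th percentile subtracted. Probes well above background on at least 3 of 6 arrays were kept (38794), less 334 with no usable spot on some array, leaving 38460. On DIO_CR_WR replicate 2, 2 of 10 Kdr spots were outliers and left out. DIO_CR_WR was compared with DIO by limma 3.58.1 (R 4.3.3) per probe, with adjustment over all probes, and tested on simulated data. Groups follow the sample titles. Same-numbered arrays were not paired: no label states a pairing and their deviations correlated at 0.00, −0.13 and −0.21 across probes. The members and lists were chosen with earlier results of these data known. Named are the members and, per list, the 2 other genes with the smallest p, and the 5 nearest genes to the endothelial mean. For some lists further genes are named beside these. Positions are on mm9.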

Additional observations from a re-analysis of the deposited data

How the results depend on the processing

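No vessel or angiogenic probe passed at an adjusted p under 0.05 under any of the 18 alternatives (0 in each), including the replicate block, under which 0 of all probes passed and the median of these probes relative to all probes stayed 0.14. The replicate block is a check only, as the numbers do not pair the samples. Over all probes the count was 6 with E1A spike-in scaling, 46 with signal required on all 6 arrays, and between 0 and 5370 without each array in turn. The 5370 came without DIO replicate 1, where the groups lie on different slides, and 0 vessel or angiogenic probes were among them. The median of these probes relative to all probes was 0.029 with normexp and quantile normalization, 0.053 with quantile normalization, −0.016 with no filter on dim probes, 0.25 with one probe per gene and 0.23 with the mean of a gene's probes. With signal required on all 6 arrays it was 0.066, and without each array it ran from 0.10 to 0.17. The cause was not tested. Pecam1, Cdh5, Tek and Angpt2 kept a positive fold change under every alternative run, from 0.34 to 0.87, 0.38 to 1.01, 0.27 to 0.88 and 0.11 to 0.72. Of 240 single-probe values 32 changed sign.

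With E1A spike-in scaling, which moved the median of all probes to 0.27, the log2 fold changes became 0.14 and 0.11 for Kdr, 0.14 and 0.42 for Vwf, 0.29 and 0.36 for Flt1, and 0.18 and 0.40 for Vegfa, each gene's probes in the order described above. With median centring the second probes gave 0.011 for Flt1 and 0.076 for Vwf, and Vegfa at chr17:46162376-46162435 gave 0.052. With normexp and quantile normalization Tie1 gave −0.012 and that Vegfa probe 0.12. On slide 1 alone and with the slide as a block, Angpt1 gave −0.44, the Vwf probes 0.081 and 0.18, and the Kdr probes 0.051 and 0.097. Leaving out arrays gave from −0.14 to 0.27 for Angpt1, from −0.11 to 0.34 for Tie1, from −0.15 to 0.13 for the upstream Vwf probe and from −0.27 to 0.031 for the second Flt1 probe. Signal over background limits the third Flt1 probe, which was well above background on 2 of the 6 arrays.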
